A study of Mus musculus with 44 samples.

Results

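The genes examined were the Jun family (Jun, Junb and Jund), the Fos family (Fos, Fosb, Fosl1 and Fosl2) and the immediate early genes Egr1, Ier2 and Ier3. They are a list of named genes, drawn up with earlier results of these data known, and make up 10 of the 35249 genes in the count table. Of the 10, 8 passed the filter on low counts and were tested, while Fosb and Fosl1 did not and are described by their counts. RNA was sequenced from the liver of mice that were wild type (WT), lacked Ripk3 (Ripk3KO, Ripk3-/-) or lacked Mlkl (MlklKO, Mlkl-/-). Both genes act in necroptosis, a lytic form of programmed cell death, in which the kinase RIPK3 activates MLKL and MLKL breaks the plasma membrane. From 2 months of age the mice were kept for 6 months on 1 of 3 diets. These were normal chow (the control diet) and 2 diets without choline, one low in fat (CD-LFD) and one high in fat (CD-HFD). The 44 libraries comprised 6 WT libraries on each diet, 6 (control), 3 (CD-LFD) and 4 (CD-HFD) of Ripk3KO, and 6 (control), 4 (CD-LFD) and 3 (CD-HFD) of MlklKO. The labels used here give neither the sex of the mice nor a batch, and do not say which cells lack the deleted genes.

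AP-1 is a transcription factor made of a Jun protein paired with another Jun or with a Fos protein, and it binds DNA through a basic leucine zipper. Immediate early genes are transcribed within minutes of a signal such as a growth factor, a cytokine or tissue handling, without new protein synthesis. In the liver they are known for their brief induction after partial removal of the organ, in inflammation and in tumour formation, and Jun is known to protect hepatocytes early in liver cancer development.

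The deepest library, WT CD-LFD replicate 3, had 88204703 counts, and the other 43 had between 2476268 and 12471844. Levels are given as CPM, counts relative to the size of the library, after scaling by TMM, a method that aligns the bulk of genes between libraries. A change is the log2 difference fitted by edgeR's quasi-likelihood test over all 44 libraries, and a gene was called where its Benjamini-Hochberg adjusted p over 14862 genes was under 0.05. Ripk3 stood at 0 to 0.326 CPM in 12 of the 13 Ripk3KO libraries and at 1.26 CPM in Ripk3KO control replicate 5, within the 0.511 to 4.89 CPM of WT control. Mlkl stood at 1.46 to 4.83 CPM in 12 of the 13 MlklKO libraries and at 12.5 CPM in MlklKO CD-HFD replicate 1, near the 14.3 to 17.7 CPM of WT CD-HFD. Both libraries go against their labels, and calls that change without them are given both ways. On the control diet Mlkl stood at 1.46 to 3.04 CPM in MlklKO and at 4.28 to 6.15 CPM in 5 of the 6 WT libraries, with WT replicate 5 (2.28 CPM, from 5 counts) inside the MlklKO range. WT control replicates 5 and 6 stood apart from the other 4 of their group over all genes, with a chi-square per degree of freedom of 47.9 to 96.7 against them and 16.2 between the pair, and calls that change without both are given. Ripk3KO control replicates 1 and 2 stood apart from 5 and 6 in a like way (64.3 to 88.2, against 8.63 and 10.8 within the pairs). Those pairs were not left out together. WT CD-LFD replicate 1 was the highest of its group for each of the 8 tested genes and Fosb, and results that rest on it are treated in the same way. The log2 ratio of the clock genes Arntl to Dbp, which moves with the time of day, ran from -7.47 to 2.63 in WT control, from -2.63 to -0.27 in WT CD-LFD and from -7.06 to -2.09 in the other 7 groups.

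The sequences just upstream of Fos, Jun, Junb and Ier3 are shown because the results below turn on these genes. They are the 100 bases before the RefSeq start on GRCm38.p6, read 5′ to 3′ on the gene's strand, at chr12:85473790-85473889 (plus strand, Fos), chr4:95052223-95052322 (minus strand, Jun), chr8:84978749-84978848 (minus strand, Junb) and chr17:35821613-35821712 (plus strand, Ier3). Capitals mark any match of 6 motifs. These were TGACTCA, the AP-1 site, and TGACNTCA, which spans the cAMP response element and the AP-1-like site of the Jun promoter. They were also TGACGT, the core of the cAMP response element, the CCAAT box, the TATAA of a TATA box (on the gene's strand, the others on either strand) and the CArG box, the site of serum response factor.
Fos: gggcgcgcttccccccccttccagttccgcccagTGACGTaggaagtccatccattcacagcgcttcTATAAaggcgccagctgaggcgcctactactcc
Jun: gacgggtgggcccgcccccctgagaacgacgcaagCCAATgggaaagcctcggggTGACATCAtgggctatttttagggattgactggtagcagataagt
Junb: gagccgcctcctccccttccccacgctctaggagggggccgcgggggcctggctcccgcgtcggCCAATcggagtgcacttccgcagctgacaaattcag
Ier3: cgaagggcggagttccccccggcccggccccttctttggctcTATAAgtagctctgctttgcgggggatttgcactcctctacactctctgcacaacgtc

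Promoters of 7 of the 10 genes were in the RefSeq table (Jun, Junb, Jund, Fos, Fosb, Fosl2 and Ier3), and 250 bases before each start were searched. TGACNTCA was found in 1 of the 7 (Jun, as TGACATCA at 45 to 38 bases before the start) and in 7.49% of 32851 promoters. TGACGT was found in Fos alone, 66 to 61 bases before the start, and in 6.47% of all promoters. CCAAT was found in Jun, Junb and, upstream of the stretch shown, Ier3 (33.8% of all promoters), and TATAA in Fos and Ier3 (16% of all promoters). The AP-1 site TGACTCA (4.46% of all promoters) and the CArG box (1.47%) were in none of the 7 windows. A match of TGACGT can lie inside a match of TGACNTCA. A match is a string of letters and not a measured binding site.

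Levels of different genes were compared only per kilobase of exon. Averaged over the 44 libraries, Jund was the most abundant at 42.6 CPM per kb (SD 13.0), followed by Junb at 37.1 (SD 19.2), Ier2 at 27.2 (SD 9.25) and Jun at 22 (SD 12.4). These neighbours lay within each other's spread, with Jund above Junb in 31 of 44 libraries, Junb above Ier2 in 32 and Ier2 above Jun in 29. A clear step came next, since Jun was above Egr1 (5.67 CPM per kb, SD 5.34) in each of the 44 libraries. Ier3 (3.95 CPM per kb), Fosl2 (2.13) and Fos (2.08) followed without a clear order, Fosl2 being above Fos in 29 of 44 libraries. Fosb (0.117 CPM per kb) was below Fos in each library, and Fosl1 (0.0365 CPM per kb) was lowest.

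Most of the AP-1 signal per kilobase came from the Jun family. The 4 Fos-family genes made up 3.58% ± 0.326 (SD, n = 6) of the CPM per kb of the 7 AP-1 genes in WT control, 3.54% ± 0.490 (n = 6) in Ripk3KO control and 2.80% ± 0.717 (n = 6) in MlklKO control. On CD-HFD the shares were 4.60% ± 1.23 (n = 6), 4.78% ± 0.561 (n = 4) and 5.84% ± 0.757 (n = 3) in the same order of genotypes, and on CD-LFD 4.22% ± 3.07 (n = 6), 3.20% ± 0.554 (n = 3) and 3.12% ± 0.456 (n = 4). These shares were not tested. The highest single library was WT CD-LFD replicate 1 at 10.4% and the lowest MlklKO control replicate 5 at 1.58%. Within the Jun family the largest share differed by group. Jund held 51.1% ± 8.67 (SD, n = 6) of the 7 genes' CPM per kb in WT control, and Junb held 55.2% ± 5.72 (n = 6) in MlklKO control.

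**Figure D1:**
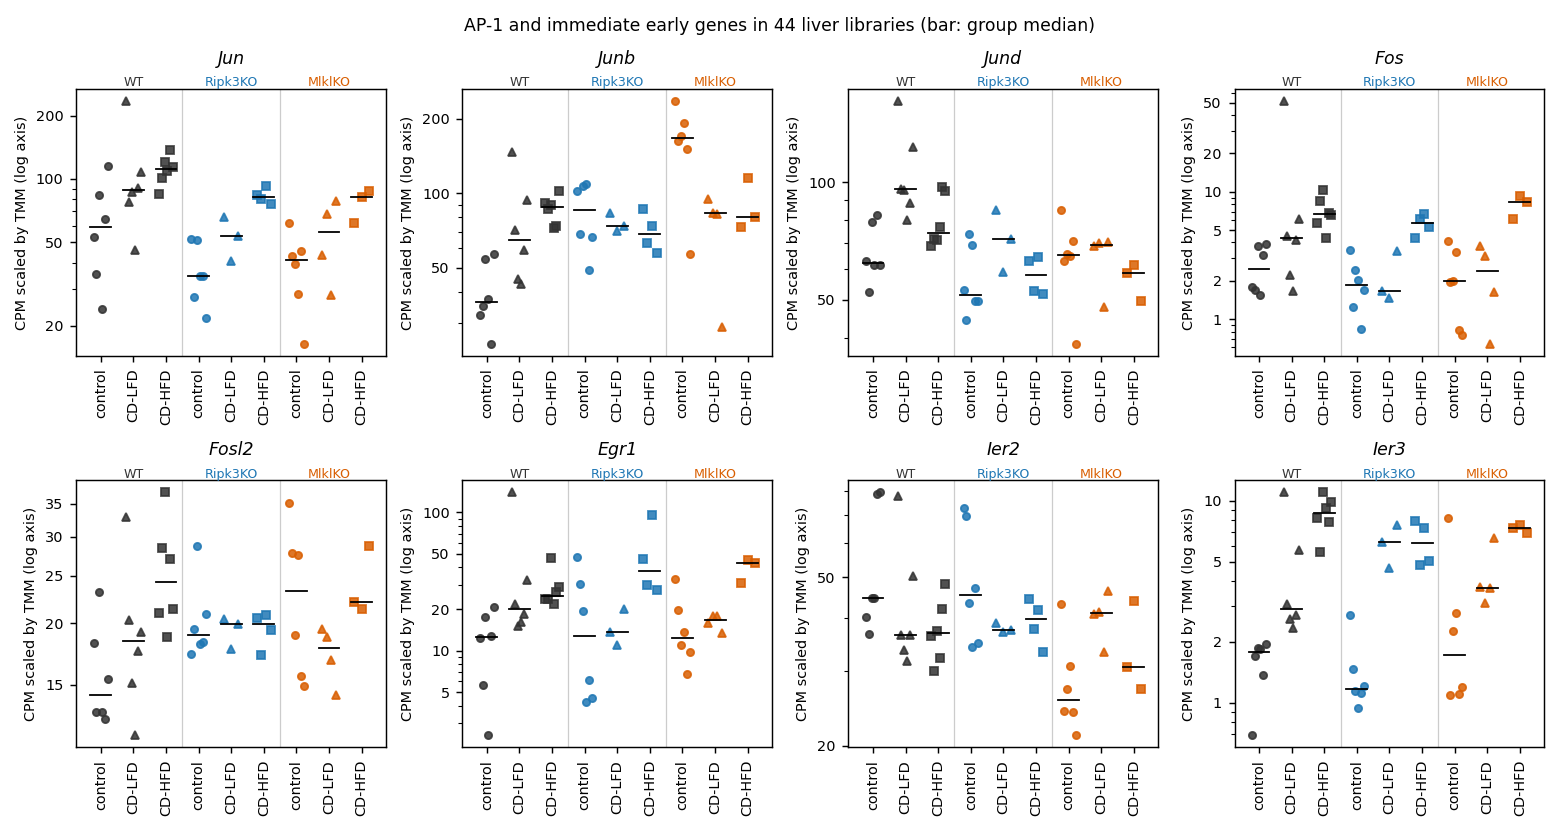
Level of each of the 8 tested genes (CPM scaled by TMM, log axis) in every library, by genotype and diet, with a bar at the group median. The medians of Ier3 and Fos stood higher on CD-HFD than on the control diet in all 3 genotypes, that of Junb was highest in MlklKO control, and WT CD-LFD replicate 1 stands above its group in each panel.

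In WT livers most of these genes rose on CD-HFD. Of the 8 tested, 6 rose against control and 1 fell, in a comparison in which 47.7% of all tested genes were called and 23.5% rose. Ier3, a gene known to restrain cell death and NF-kB signalling, rose most, and Ier2, a small nuclear immediate early protein, was the one that fell. In 4 genes (Ier3, Fos, Egr1 and Junb) every CD-HFD library was above every control library, which held for 14.3% of all genes in that direction.

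Among the Jun family, Junb, which can oppose Jun in growth control, had 24.6, 36.3 and 56.9 CPM in WT control (lowest, median and highest of 6) and 72.4, 88 and 102 CPM in WT CD-HFD. The groups did not overlap, and the change was 1.09 (SE 0.279, edgeR adjusted p = 0.00129). Jun itself, the main partner of Fos, had 24.0, 58.8 and 116 CPM on control and 85.1, 111.5 and 137 CPM on CD-HFD, so that the highest control library reached into the CD-HFD range. Its change was 0.82 (SE 0.308, edgeR adjusted p = 0.0257), and it was no longer called without WT control replicate 1 (0.78, adjusted p = 0.0518), 2 (0.70, adjusted p = 0.0718) or 4 (0.66, adjusted p = 0.0784) or without WT CD-HFD replicate 5 (0.75, adjusted p = 0.0533). Jund, the family member that is least dependent on acute signals, had 66.6 ± 11.7 CPM on control and 80.1 ± 12.7 CPM on CD-HFD (mean ± SD, n = 6 each) and did not pass (0.27, SE 0.164, edgeR adjusted p = 0.177). Scaled by library size only, it rose (0.76, edgeR adjusted p = 0.000144), and there the median of all genes stood at 0.43 instead of -0.07.

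Among the Fos family, Fos, the best known inducible AP-1 subunit, had 1.54, 2.49 and 3.91 CPM in WT control and 4.33, 6.73 and 10.2 CPM in WT CD-HFD. Every CD-HFD library was above every control library, and the change was 1.41 (SE 0.572, edgeR adjusted p = 0.0385). Fosl2, which encodes FRA-2, a subunit linked to fibrosis, had 12.8, 14.3 and 23.1 CPM on control and 18.7, 24.2 and 36.9 CPM on CD-HFD. These groups overlapped, with WT control replicate 3 above 3 CD-HFD libraries, and the change was 0.66 (SE 0.205, edgeR adjusted p = 0.0075). The call of Fos was lost without WT control replicate 1, 2 or 4 or WT CD-HFD replicate 2 or 3 (1.28 to 1.35, edgeR adjusted p from 0.0597 to 0.0833), while that of Fosl2 held in each fit that left out 1 library.

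Ier3 had 0.69, 1.78 and 1.96 CPM in WT control and 5.6, 8.73 and 11.0 CPM in WT CD-HFD. The lowest CD-HFD library was above the highest control library, and the change was 2.48 (SE 0.408, edgeR adjusted p = 2.82e-06), or 5.6-fold. Egr1, a zinc finger transcription factor induced by growth factors and injury, had 2.46, 12.6 and 20.8 CPM on control and 21.9, 25.0 and 46.9 CPM on CD-HFD. The ranges came close without meeting, and the change of 1.23 (SE 0.521, edgeR adjusted p = 0.0476) stayed called in 3 of the 12 fits that left out 1 library. Of the 9 others, those without WT CD-HFD replicate 3 (1.03, edgeR adjusted p = 0.113) and without WT control replicate 4 (1.03, adjusted p = 0.112) went lowest, and the rest (WT control replicates 1, 2 and 5 and WT CD-HFD replicates 1, 2, 5 and 6) gave 1.09 to 1.28. Ier2 had 36.6, 44.6 and 79.2 CPM on control and 30.1, 36.8 and 48.1 CPM on CD-HFD, with overlap, and a change of -0.51 (SE 0.214, edgeR adjusted p = 0.0479). This fall was lost in 7 of 8 other settings, at -0.02 by library size only (edgeR adjusted p = 0.937) and -0.14 without WT control replicates 5 and 6 (adjusted p = 0.607), which are also the highest Ier2 libraries of the group. Without WT control replicate 5 or 6 alone it was -0.38 and -0.36, and it was also lost without WT CD-HFD replicate 1, 2, 3 or 4 (-0.50 to -0.45).

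Markers of several cell types moved with CD-HFD in the same libraries. The 10 macrophage markers summed to 265 to 328 CPM in WT control and to 1175 to 2896 CPM in WT CD-HFD (8 of 10 rose, 1 fell), and the 10 stellate and fibroblast markers to 242 to 305 and 855 to 1624 CPM (8 of 10 rose). The 7 cholangiocyte markers summed to 15.6 to 35.6 and 89.3 to 136 CPM (6 of 6 tested rose), and the 7 neutrophil markers to 0.922 to 11.7 and 19.0 to 35.5 CPM (3 of 4 tested rose), with Ly6g at 0 in both groups. Of the 8 T and NK cell markers 6 of 7 tested rose (2.44 to 5.93 and 13.1 to 33.7 CPM), with Ncr1 at 0 in WT control, and all 6 proliferation markers rose (4.26 to 10 and 41.0 to 72.2 CPM). The 8 endothelial markers summed to 175 to 233 and 76.4 to 131 CPM (7 fell), and all 7 hepatocyte markers found fell (87670 to 153900 and 55640 to 90210 CPM). The part of these cell types in the changes of the Jun, Fos and immediate early genes was not tested. In a whole liver, more or fewer cells of a type and more or less RNA per cell cannot be told apart.

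On CD-LFD, 5 of the 8 tested genes rose in WT livers and none fell, where 27.7% of all tested genes were called and 13.7% rose. They were Fos (2.13, SE 0.569), Egr1 (1.73, SE 0.523), Ier3 (1.54, SE 0.421), Junb (0.92, SE 0.279) and Jund (0.69, SE 0.165), with edgeR adjusted p from 0.00157 (Jund) to 0.0119 (Junb). The values behind them were uneven. Fos had 1.67, 4.37 and 51.5 CPM in WT CD-LFD (lowest, median and highest of 6), Egr1 15.1, 20.1 and 139 CPM, and Junb 42.9, 64.9 and 146 CPM, the highest each time being replicate 1. Without that library Fos stood at 0.47 (edgeR adjusted p = 0.394), Egr1 at 0.77 (adjusted p = 0.218) and Junb at 0.63 (adjusted p = 0.0777), and 2 genes remained called. Fos (2.14, edgeR adjusted p = 0.0775) and Egr1 (1.75, adjusted p = 0.0548) also lost their calls in a fit of the 12 libraries of this comparison alone.

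Those 2 were Ier3 and Jund. Ier3 had 2.34, 2.90 and 11.0 CPM in WT CD-LFD, with its lowest library above the highest of control, and stood at 1.08 (edgeR adjusted p = 0.0395) without replicate 1. Ier3 was the only one of the 8 without overlap, which held for 5.04% of all genes in that direction. Jund had 80.2, 95.9 and 161 CPM in WT CD-LFD against 52.3, 62.2 and 82.6 CPM in WT control, with 1 control library inside the CD-LFD range, and stood at 0.54 (edgeR adjusted p = 0.0109) without replicate 1. Jun missed the threshold (0.77, SE 0.308, edgeR adjusted p = 0.0564) and was called without WT control replicate 6 (1.04, adjusted p = 0.00901) or 3, without WT CD-LFD replicate 3 or 4, and in 5 of 8 other settings. Macrophage markers summed to 361 to 572 CPM in WT CD-LFD (6 of 10 rose) and stellate and fibroblast markers to 352 to 669 CPM (8 of 10 rose), and their part was not tested. Endothelial markers summed to 117 to 136 CPM there and 175 to 233 in WT control, and hepatocyte markers to 61110 to 105400 and 87670 to 153900 CPM. Cholangiocyte markers summed to 23.5 to 58.6 and 15.6 to 35.6 CPM, and proliferation markers to 14.65 to 43.4 and 4.26 to 10 CPM. The part of these was not tested. In WT CD-LFD replicate 1 the macrophage sum lay within the range of its group, while the heat shock genes (3852 CPM, against 2775 to 3662 in the other 5) and the erythroid markers (197.7 CPM, against 89.5 to 178.5) were highest there. Their part was not tested either.

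Against CD-LFD, CD-HFD gave 1 call among the 8 tested WT genes, a rise of Ier3 by 0.94 (SE 0.335, edgeR adjusted p = 0.0387), where 21.1% of all tested genes were called. This call was lost without any of 8 single libraries (WT CD-LFD replicates 2 to 5 and WT CD-HFD replicates 1, 3, 4 and 6), at 0.78 to 0.95, in a fit of these 2 groups alone (0.90, edgeR adjusted p = 0.0608) and with the clock-gene ratio as a covariate (0.97, adjusted p = 0.122). Jund had 80.1 ± 12.7 CPM on CD-HFD and 107.5 ± 30 CPM on CD-LFD (mean ± SD, n = 6 each) and missed the threshold (-0.42, SE 0.163, edgeR adjusted p = 0.0579). It was called lower without WT CD-LFD replicate 4 or 5 or WT CD-HFD replicate 5 or 6 (-0.49 to -0.47, edgeR adjusted p from 0.033 to 0.0448). Fosl2 also missed it (0.40, edgeR adjusted p = 0.156), and was called higher on CD-HFD without WT CD-LFD replicate 1 (0.61, adjusted p = 0.0209), by library size only (0.59, adjusted p = 0.025) and with the clock-gene ratio as a covariate (0.67, adjusted p = 0.0329). Between these diets 8 of 10 macrophage, 6 of 10 stellate and fibroblast and 6 of 6 tested cholangiocyte markers were higher on CD-HFD in WT, and their part was not tested.

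**Figure D2:**
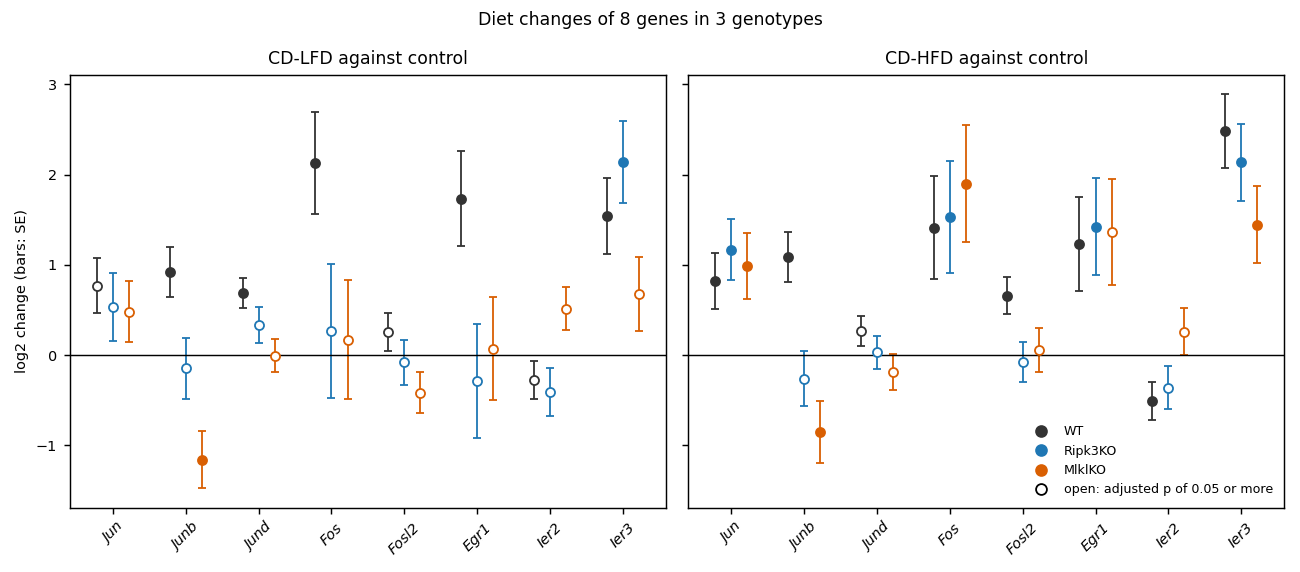
Fitted log2 change of 8 genes on CD-LFD (left) and CD-HFD (right) against the control diet in each genotype, with bars of 1 SE and open points where the edgeR adjusted p was 0.05 or more. On CD-HFD the changes of Fos, Jun, Egr1 and Ier3 lay between 0.82 and 2.48 in all 3 genotypes, while Junb ran from 1.09 in WT to -0.85 in MlklKO.

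In Ripk3KO livers Ier3, Fos, Egr1 and Jun, 4 of the 8 tested genes, rose on CD-HFD and none fell, where 46.3% of all tested genes were called and 24.6% rose. Ier3 had 7.99, 4.83, 7.34 and 5.03 CPM in the 4 CD-HFD libraries and 0.945, 1.17 and 2.72 CPM (lowest, median and highest of 6) on control, a change of 2.14 (SE 0.426, edgeR adjusted p = 6.5e-05). Jun had 83.4, 80.5, 92.8 and 75.6 CPM on CD-HFD and 21.7, 34.4 and 51.5 CPM on control, a change of 1.17 (SE 0.339, edgeR adjusted p = 0.0043). Fos had 4.33, 6.14, 6.64 and 5.29 CPM on CD-HFD and 0.838, 1.87 and 3.50 CPM on control, a change of 1.53 (SE 0.620, edgeR adjusted p = 0.0408). In these 3 genes the groups did not overlap, which held for 20.6% of all genes in that direction.

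Egr1 did overlap in Ripk3KO. It had 46.1, 29.7, 95.5 and 27.6 CPM on CD-HFD and 4.25, 12.7 and 47.2 CPM on control, with control replicates 1 and 2 inside the CD-HFD range. The change of 1.43 (SE 0.542, edgeR adjusted p = 0.0286) was 0.89 (adjusted p = 0.219) without Ripk3KO CD-HFD replicate 3, and 1.21 to 1.24 (adjusted p from 0.0671 to 0.071) without control replicate 4, 5 or 6. In a fit of these 2 groups alone it was 1.47 (edgeR adjusted p = 0.0517). The calls of Ier3 and Jun held in each fit that left out 1 library, and that of Fos in 3 of 10, being lost without control replicate 2, 4, 5 or 6 or CD-HFD replicate 2, 3 or 5 (1.35 to 1.56), and with the clock-gene ratio as a covariate (1.46, edgeR adjusted p = 0.0507). Without both libraries that go against their labels, Fos stood at 1.35 (edgeR adjusted p = 0.0928) and Egr1 at 1.24 (adjusted p = 0.0718), and both calls were lost. Macrophage markers summed to 96.2 to 636 CPM in Ripk3KO control and 1698 to 2314 CPM in Ripk3KO CD-HFD (8 of 10 rose), and stellate and fibroblast markers to 165 to 251 and 978 to 1213 CPM (8 of 10 rose), and their part was not tested. In the same comparison 11 of the 18 acute phase and metallothionein genes described below fell (median -1.24), and heat shock genes fell as given below. The part of these was not tested either.

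Ripk3KO CD-LFD gave a single call, again Ier3, where 24.1% of all tested genes were called. Its 6.25, 4.64 and 7.63 CPM lay above all control libraries, a separation that 10.9% of all genes showed, and the change was 2.14 (SE 0.458, edgeR adjusted p = 0.000661). In the same comparison 7 of 10 stellate and fibroblast markers rose (276 to 785 CPM on CD-LFD), as did 5 of 10 macrophage markers (427 to 615 CPM) and 6 of 6 tested cholangiocyte markers (16.4 to 82.4 CPM), and their part was not tested. Of the 18 acute phase and metallothionein genes described below, 10 fell there (median -1.33), and their part was not tested either. Fos had 1.67, 1.48 and 3.40 CPM and Egr1 13.8, 11.0 and 20.1 CPM, all within their control ranges. Between the 2 choline-deficient diets no gene of the 8 was called in Ripk3KO by edgeR (1 had an unadjusted p under 0.05, and DESeq2 called 0), where 8.83% of all genes were. In this comparison Egr1, Fos and Jun had all 4 CD-HFD libraries above all 3 CD-LFD libraries, which 16% of all genes showed, with changes of 1.71, 1.26 and 0.64 (edgeR adjusted p = 0.114, 0.315 and 0.372). In a fit of these 2 groups alone all 3 were called, Egr1 at 1.68 (edgeR adjusted p = 0.021), Fos at 1.23 (adjusted p = 0.025) and Jun at 0.64 (adjusted p = 0.0214), and with a replicate block Egr1 was (1.90, adjusted p = 0.0409). Macrophage markers were higher on CD-HFD in this comparison (8 of 10), as were 4 of 10 stellate and fibroblast markers, and their part was not tested.

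In MlklKO livers Fos, Ier3 and Jun rose and Junb fell on CD-HFD, 4 of the 8 tested genes, where 45.2% of all tested genes were called and 24.9% rose. Fos had 6.09, 9.26 and 8.26 CPM in the 3 CD-HFD libraries and 0.746, 1.98 and 4.09 CPM (lowest, median and highest of 6) on control. It was the only one of the 8 without overlap, which held for 22.2% of all genes in that direction, and its change was 1.90 (SE 0.645, edgeR adjusted p = 0.0147). Ier3 had 7.31, 7.57 and 6.93 CPM on CD-HFD and 1.09, 1.73 and 8.19 CPM on control, the highest being control replicate 1. Its change was 1.45 (SE 0.424, edgeR adjusted p = 0.00488), and 2.08 without that replicate.

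Jun had 61.5, 82.3 and 87.2 CPM in MlklKO CD-HFD and 16.4, 41.1 and 61.8 CPM in MlklKO control, with control replicate 1 just above the lowest CD-HFD library. Its change was 0.99 (SE 0.366, edgeR adjusted p = 0.0253), and the call was lost without control replicate 4 or 6 or CD-HFD replicate 2 or 4 (0.83 to 0.94, adjusted p from 0.0518 to 0.0936). The call of Fos was lost without CD-HFD replicate 2 (1.77, edgeR adjusted p = 0.0568). Egr1, with 30.6, 45 and 43.0 CPM on CD-HFD and 6.76, 12.3 and 33.0 CPM on control, missed the threshold (1.37, SE 0.588, edgeR adjusted p = 0.0545) and was called without control replicate 1 (1.72, adjusted p = 0.0201), and in 6 of 8 other settings. Macrophage markers summed to 182 to 408 CPM in MlklKO control and 1666 to 2630 CPM in MlklKO CD-HFD (9 of 10 rose), and stellate and fibroblast markers to 187 to 285 and 1124 to 1617 CPM (8 of 10 rose). In the same comparison 13 of the 18 acute phase and metallothionein genes described below fell (median -1.69), as did 9 of 12 heat shock genes (median -1.07). The part of all these was not tested. Without both libraries that go against their labels, Fos, Ier3 and Jun stayed called in MlklKO, and Junb (-0.73, edgeR adjusted p = 0.135) did not.

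On CD-LFD, Junb was the only called gene of the 8 in MlklKO, and it fell, where 37.9% of all tested genes were called. Ier3 had 3.73, 3.13, 3.69 and 6.55 CPM there and missed the threshold (0.68, SE 0.410, edgeR adjusted p = 0.186), and was called without MlklKO control replicate 1 (1.31, adjusted p = 0.00784). Ier2, with 40.8, 41.4, 33.2 and 46.3 CPM on CD-LFD and 21.2, 25.7 and 43.1 CPM on control, also missed it (0.51, SE 0.238, edgeR adjusted p = 0.0827), and was called without MlklKO control replicate 1 (0.67, adjusted p = 0.0313) and in 3 of 7 other settings, by library size only (0.66), with these 2 groups fitted alone (0.50) and with the clock-gene ratio as a covariate (0.63). With that covariate Jun was called as well (0.84, edgeR adjusted p = 0.0406). Between the 2 choline-deficient diets edgeR called 0 of the 8 in MlklKO (1 had an unadjusted p under 0.05, and DESeq2 called 1, Fos), where 23.7% of all genes were called. Fos, Egr1, Fosl2 and Ier3 were higher in all 3 CD-HFD than in all 4 CD-LFD libraries, which 20.8% of all genes showed. The largest of these changes was that of Fos (1.73, SE 0.697, edgeR adjusted p = 0.0651), and without MlklKO CD-HFD replicate 1, which goes against its label, it was 1.88 (adjusted p = 0.075). In a fit of these 2 groups alone Egr1 (1.28, edgeR adjusted p = 0.000215) and Fos (1.70, adjusted p = 0.00606) were called. Both were called with a replicate block as well (Egr1 1.5, edgeR adjusted p = 0.0497, and Fos 1.92, adjusted p = 0.0326), and by library size only Fos, Fosl2, Egr1 and Ier3 were. Macrophage (8 of 10), stellate and fibroblast (6 of 10) and cholangiocyte (6 of 6 tested) markers were higher on CD-HFD here too, and their part was not tested. On CD-LFD against control 6 of 10 macrophage markers (308 to 661 CPM on CD-LFD) and 5 of 10 stellate and fibroblast markers (367 to 662 CPM) rose in MlklKO and 0 of 6 tested cholangiocyte markers were called. In the same comparison 11 of the 18 acute phase and metallothionein genes described below fell (median -1.91), as did 5 of 12 heat shock genes and 2 of 4 tested neutrophil markers. The part of all these in the fall of Junb was not tested.

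Between genotypes, Junb had the largest differences of the 8 genes on the control diet. It had 24.6, 36.3 and 56.9 CPM in WT (lowest, median and highest of 6), 48.9, 85.6 and 109 CPM in Ripk3KO and 56.8, 167 and 236 CPM in MlklKO. Of the 6 MlklKO control libraries, 5 lay between 152 and 236 CPM, above every WT and Ripk3KO library on that diet, and replicate 6 lay at 56.8 CPM, just under the highest WT library. On CD-HFD the means lay closer, at 85.8 ± 11.2 CPM in the 6 WT libraries (mean ± SD), 70.2 ± 12.9 in the 4 of Ripk3KO and 89.6 ± 22.8 in the 3 of MlklKO.

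Against WT on the control diet Junb was 2.00 higher in MlklKO (SE 0.285, edgeR adjusted p = 2.09e-06), or 4.01-fold, and 1.06 higher in Ripk3KO (SE 0.280, edgeR adjusted p = 0.0206), or 2.08-fold. The MlklKO comparison called 2 of the 8 genes, where 27.1% of all tested genes were called, and the Ripk3KO comparison 1 of the 8, where 4.47% were. The MlklKO rise of Junb held in each fit that left out 1 library (1.87 to 2.18) and in each of 8 other settings (1.92 to 2.11). The Ripk3KO rise was lost without WT control replicate 5 (0.96, edgeR adjusted p = 0.0633) or Ripk3KO control replicate 3 (0.97, adjusted p = 0.0577) or 4 (0.97, adjusted p = 0.0576). It was also lost with the clock-gene ratio as a covariate (1.24, edgeR adjusted p = 0.0883), without WT control replicates 5 and 6 (1.08, adjusted p = 0.0565) and in a fit of these 2 groups alone (1.07, adjusted p = 0.0841). Without the libraries that go against their labels it was 1.17 (edgeR adjusted p = 0.0147). Both comparisons share the 6 WT control libraries.

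The diet response of Junb had opposite signs in WT and MlklKO. In MlklKO it fell by 1.16 on CD-LFD (SE 0.314, edgeR adjusted p = 0.0039) and by 0.85 on CD-HFD (SE 0.344, edgeR adjusted p = 0.0399). Its 94.5, 83.6, 82.8 and 28.7 CPM on CD-LFD lay below all MlklKO control libraries except replicate 6. The difference between the MlklKO and the WT response was itself called on both diets, at -2.08 (SE 0.420, edgeR adjusted p = 0.00164) for CD-LFD and -1.94 (SE 0.446, edgeR adjusted p = 0.00998) for CD-HFD. Both differences use the same control libraries, in which Junb was higher in MlklKO, so they are not independent results. Between MlklKO and WT, Junb differed by -0.07 on CD-LFD and 0.06 on CD-HFD, and neither was called. Of the 18 acute phase and metallothionein genes, 9 and 11 had a lower response in MlklKO by the same tests, and their part was not tested. The Junb differences were the only calls among the 8 in the MlklKO interactions, where 8.45% and 4.12% of all tested genes were called. On CD-LFD Ier2 missed the threshold (0.79, edgeR adjusted p = 0.116) and was called without WT CD-LFD replicate 1 (1.02, adjusted p = 0.0308). Jund missed it as well (-0.70, edgeR adjusted p = 0.069) and was called without WT CD-LFD replicate 4 (-0.77, adjusted p = 0.0441), without MlklKO control replicate 6 (-0.81, adjusted p = 0.0173) and by library size only (-0.86, adjusted p = 0.0208). For Ripk3KO the corresponding differences of Junb were -1.06 (SE 0.441, edgeR adjusted p = 0.51) and -1.35 (SE 0.416, edgeR adjusted p = 0.13), and edgeR called 0 of the 8 in either (2 and 2 had an unadjusted p under 0.05, and DESeq2 called 0 and 0), where 0.0269% and 0.478% of all genes were called.

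Leaving out 1 library at a time moved the MlklKO difference of Junb between -2.25 and -1.79 on CD-LFD, called each time, and between -2.17 and -1.80 on CD-HFD. The latter was lost without MlklKO CD-HFD replicate 4 (-1.86, edgeR adjusted p = 0.0508), and was -1.82 (adjusted p = 0.0339) without the libraries that go against their labels. The fall of Junb in MlklKO on CD-HFD was lost in 6 of 8 other settings, at -0.31 (edgeR adjusted p = 0.482) by library size only, and without MlklKO control replicate 1, 2, 3 or 4 or MlklKO CD-HFD replicate 1 or 4 (-0.85 to -0.71). The fall on CD-LFD stayed called in each fit that left out 1 library (-1.34 to -0.90).

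The ratio of Junb to Jun counts within a library does not depend on the scaling and was examined after the levels had been seen. In the control groups of 6 libraries each its log2 value was -0.52 ± 0.733 in WT (mean ± SD), 1.20 ± 0.440 in Ripk3KO and 2.05 ± 0.375 in MlklKO. The ranges of WT (-1.39 to 0.65) and MlklKO (1.74 to 2.76) were apart, replicate 6 included, and that of Ripk3KO (0.50 to 1.67) lay below MlklKO. MlklKO control replicate 6 had 56.8 CPM of Junb, inside the WT control range, and 16.4 CPM of Jun, the lowest of all 44 libraries. Mean Jun was 39.0 CPM in MlklKO control and 62.7 CPM in WT control, so a higher ratio need not mean more Junb. On CD-HFD the log2 ratio was -0.37 ± 0.351 (n = 6), -0.26 ± 0.209 (n = 4) and 0.21 ± 0.310 (n = 3). MlklKO CD-LFD was spread widely, from -1.45 in replicate 4 to 1.56 in replicate 3.

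**Figure D3:**
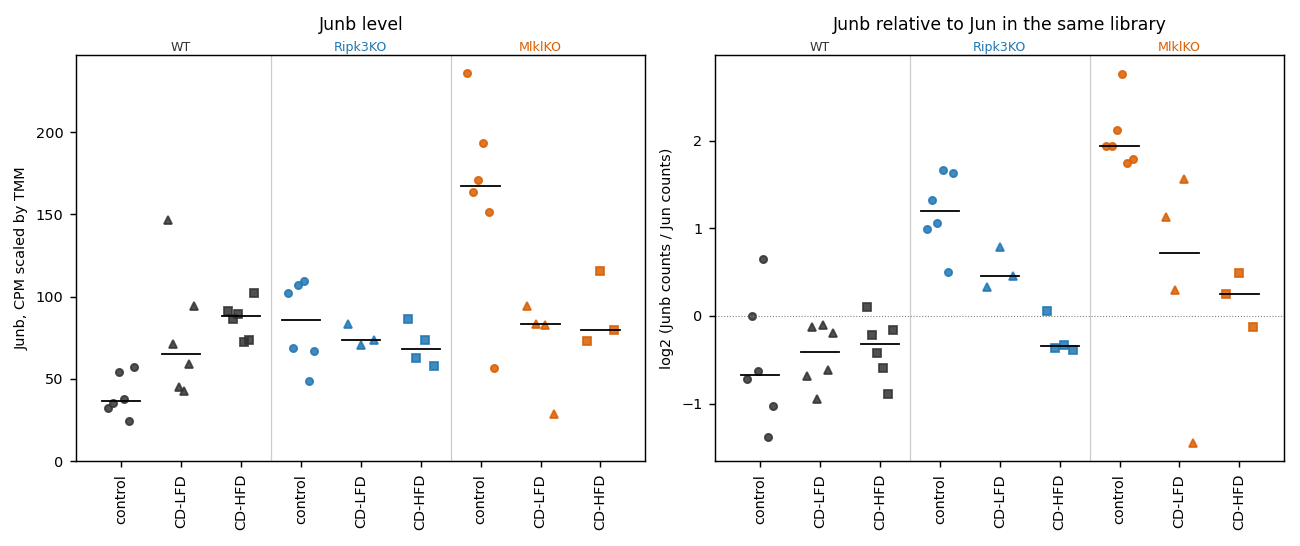
Junb level in CPM scaled by TMM (left, axis from 0) and log2 ratio of Junb to Jun counts in the same library (right), by genotype and diet, with bars at the medians. The 6 MlklKO control libraries have ratios of 1.74 to 2.76, above all WT libraries, and the 3 genotypes lie close together on CD-HFD.

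Other measures also differed between the genotypes in the control-diet libraries, and Junb followed them only in part. Acute phase genes, which the liver transcribes in response to inflammatory cytokines, and the metallothioneins were listed after these values had been seen (18 genes, 17 of them called higher in each knockout against WT on control). They summed to 13410 to 25140 CPM in WT control, 22190 to 103900 in Ripk3KO control and 28090 to 85100 in MlklKO control, and to 14160 to 26200 CPM in the 6 other groups. In MlklKO the lowest library was replicate 6, also lowest for Junb, with 24.2 CPM of Mt1 where the other 5 had 2003 to 4132 CPM, and 16.3 CPM of Lcn2 where they had 182 to 818 CPM. Its Saa1, at 473 CPM, was also the lowest of the 6 (955 to 4053 CPM in the others) but above the 12.3 to 43.8 CPM of WT control. The Ripk3KO control libraries were split, with sums of 22190 and 26210 CPM and Saa1 of 13.2 and 37.9 CPM in replicates 1 and 2, near WT, and sums of 53990 to 103900 CPM and Saa1 of 2075 to 9103 CPM in replicates 3 to 6. Junb did not follow that order, since the highest acute phase sums (replicates 5 and 6) went with 48.9 and 66.9 CPM of Junb. In replicates 1 and 2, Junb deviated from the group median by 0.286 and -0.286 on the log2 scale. Both lay above the highest WT control library, at 56.9 CPM, although their acute phase sums were near WT. Ripk3KO replicate 5 goes against its label, and without it the highest sum was that of replicate 6, at 85970 CPM. Heat shock genes summed to 3445 to 5522 CPM in WT control, 3943 to 9367 in Ripk3KO control and 5748 to 8322 in MlklKO control (6 of 12 called higher in MlklKO and 1 of 12 in Ripk3KO). Of the 4 tested neutrophil markers 2 were called higher in MlklKO (the 7 summed to 3.88 to 18.9 CPM) and 1 in Ripk3KO (2.30 to 15.2 CPM), against 0.922 to 11.7 CPM in WT control. The macrophage markers, with 0 of 10 called in either knockout, did not pass, and neither did 9 of the 10 stellate and fibroblast markers in MlklKO and all 10 in Ripk3KO. The part of the acute phase, of heat shock, of neutrophils and of the time of day in the Junb level was not tested beyond the clock-gene covariate given above.

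**Figure D4:**
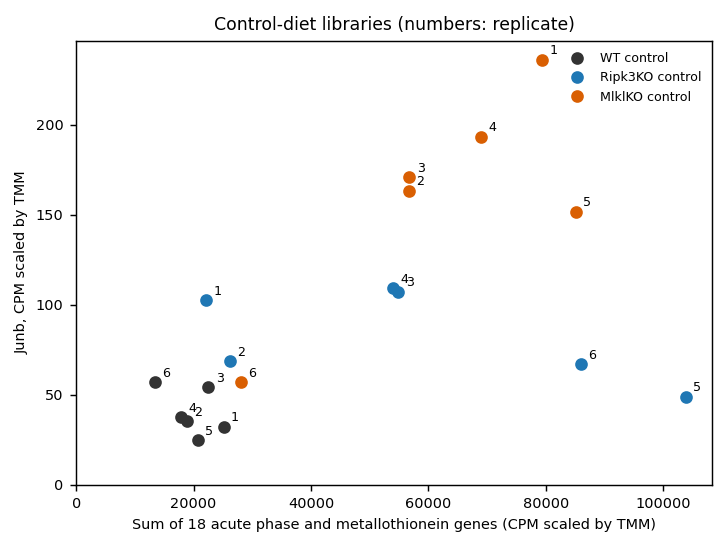
Junb (CPM scaled by TMM) against the summed level of 18 acute phase and metallothionein genes (CPM scaled by TMM) in the 18 control-diet libraries, with the replicate number beside each point. MlklKO replicate 6 lies at 56.8 CPM of Junb near the WT points, while Ripk3KO replicates 5 (which goes against its label) and 6 combine the highest sums with 48.9 and 66.9 CPM.

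Ier2 was the other gene called on the control diet, lower in MlklKO than in WT by 0.92 on the log2 scale. It had 21.2, 25.7 and 43.1 CPM in MlklKO and 36.6, 44.6 and 79.2 CPM in WT, with 1 MlklKO library inside the WT range. The change was -0.92 (SE 0.218, edgeR adjusted p = 0.00167) and held without any single library (-1.07 to -0.77), but without both WT control replicates 5 and 6, at 78.5 and 79.2 CPM, it was -0.55 (edgeR adjusted p = 0.0695). Jun had 62.7 ± 33.5 CPM in WT control and 39.0 ± 15.5 in MlklKO control (mean ± SD, n = 6 each) and did not pass (-0.69, SE 0.312, edgeR adjusted p = 0.093), although it did without WT control replicate 4 (-0.86, adjusted p = 0.0339). Fosl2 likewise did not (0.51, SE 0.207, edgeR adjusted p = 0.06), and was called without WT control replicate 3 or MlklKO control replicate 3, 5 or 6 (0.57 to 0.65), and with the clock-gene ratio as a covariate (0.75, edgeR adjusted p = 0.0141) or with a replicate block (0.53, adjusted p = 0.0442).

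On CD-LFD the MlklKO comparison with WT called Fos and Jund, both lower, among the 8, where 2.56% of all tested genes were called and 0.929% were lower. Fos had 3.73, 3.13, 0.641 and 1.64 CPM in MlklKO against 1.67, 4.37 and 51.5 CPM in WT, and the change of -2.28 (SE 0.623, edgeR adjusted p = 0.0357) became -0.63 (adjusted p = 0.507) without WT CD-LFD replicate 1. The call was also lost without any one of the 4 MlklKO CD-LFD replicates (-2.66 to -2.0), and in a fit of these 2 groups alone (-2.26, edgeR adjusted p = 0.211) and with a replicate block (-2.11, adjusted p = 0.0656). Jund had 68.6, 69.9, 48.0 and 70.3 CPM in MlklKO, all below the 80.2 to 161 CPM of WT, a separation that 3.1% of all genes showed in that direction. Its change of -0.74 (SE 0.186, edgeR adjusted p = 0.0187) was -0.59 (adjusted p = 0.0694) without WT CD-LFD replicate 1 and -0.63 (adjusted p = 0.0972) without MlklKO CD-LFD replicate 3, and -0.74 (adjusted p = 0.0528) in the fit of these 2 groups. With the clock-gene ratio as a covariate, which ran from -2.63 to -0.27 in WT CD-LFD and from -6.70 to -5.73 in MlklKO CD-LFD, neither was called (Fos -1.61, edgeR adjusted p = 0.74, and Jund -0.52, adjusted p = 0.589).

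None of the 8 genes was called by edgeR between Ripk3KO and WT on CD-LFD (4 had an unadjusted p under 0.05, and DESeq2 called 1, Fos), where 1.1% of all tested genes were called. The change of Fos was -2.38 there (DESeq2 adjusted p = 0.024). In WT CD-LFD, Fos had 51.5 CPM in replicate 1 and a median of 4.37 CPM, and DESeq2 was not run without that library. On CD-HFD edgeR called 0 of the 8 in either knockout against WT (1 and 1 had an unadjusted p under 0.05, and DESeq2 called 0 and 0), where 0.377% (Ripk3KO) and 0% (MlklKO) of all genes were called. The gene with the lowest p was Jund both times, at 63.1, 52.6, 64.6 and 51.7 CPM in Ripk3KO and 58.7, 61.3 and 49.9 CPM in MlklKO, all below the 68.7 to 97.2 CPM of WT. Its changes were -0.47 (SE 0.184, edgeR adjusted p = 0.376) and -0.50 (SE 0.204, edgeR adjusted p = 0.587), and a separation in that direction was shown by 2.4% and 2.42% of all genes. For Ier3, Fos and Jun the differences on CD-HFD ran from -0.53 to 0.17 with SE of 0.342 to 0.604, so that differences of about that size were not detectable. Those of Egr1 were larger, at 0.81 (SE 0.530) in Ripk3KO and 0.48 (SE 0.583) in MlklKO, and were not called.

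Fosb and Fosl1 were too low to be tested. Fosb, a Fos-family gene whose splice form persists after repeated stimulation, gave 276 counts over all 44 libraries and 0 in 8 of them. Of these, 84 counts came from WT CD-LFD replicate 1, at 11.7 CPM, where the other 5 libraries of that group had 0.247 to 1.06 CPM. Next came WT control replicate 6 at 2.20 CPM, from 9 counts. Fosl1, which encodes FRA-1, gave 28 counts in all and 0 in 31 libraries, and the highest value was 1.08 CPM, from 5 counts, in MlklKO control replicate 1. In WT control and Ripk3KO control all 12 libraries had 0 counts of Fosl1, which allows up to 1.37 CPM (3 counts) in the shallowest WT control library.

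Within groups the 8 genes tended to be high or low in the same libraries. Over the 28 pairs, Pearson's r between the deviations of 2 genes from their group means ran from 0.275 (Fosl2 and Ier2) to 0.725 (Jun and Jund), over 44 libraries that share depth and scaling. Without WT CD-LFD replicate 1 the range was 0.107 to 0.669, for the same pairs. WT CD-LFD replicate 1 and MlklKO control replicate 1 were each the highest library of their group in 8 of 8 genes. Ripk3KO CD-LFD replicate 2 was the lowest of its 3 in 8 of 8, WT CD-LFD replicate 4 of its 6 in 7 of 8, and WT control replicate 6 was the highest of its 6 in 6 of 8. WT CD-LFD replicate 1 stood furthest above its group in Fosb, Fos and Egr1.

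The genes most like Fos in these deviations over the 44 libraries were Egr2 (r = 0.750), Fosl2 (0.712), Jun (0.683), Egr1 (0.661), Junb (0.661), Klf6 (0.658), Jund (0.637) and Ier3 (0.628), of which 6 are among the 10 genes described. Without WT CD-LFD replicate 1 these values were 0.497 to 0.630. Those most like Jun were Brd2 (0.768), Plk3 (0.755), Zbtb21 (0.743), Cinp (0.726), Jund (0.725), Nufip1 (0.714), Rell1 (0.700) and Ctnnd1 (0.699), at 0.669 to 0.761 without that library. The 2 lists shared Jund.

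**Figure D5:**
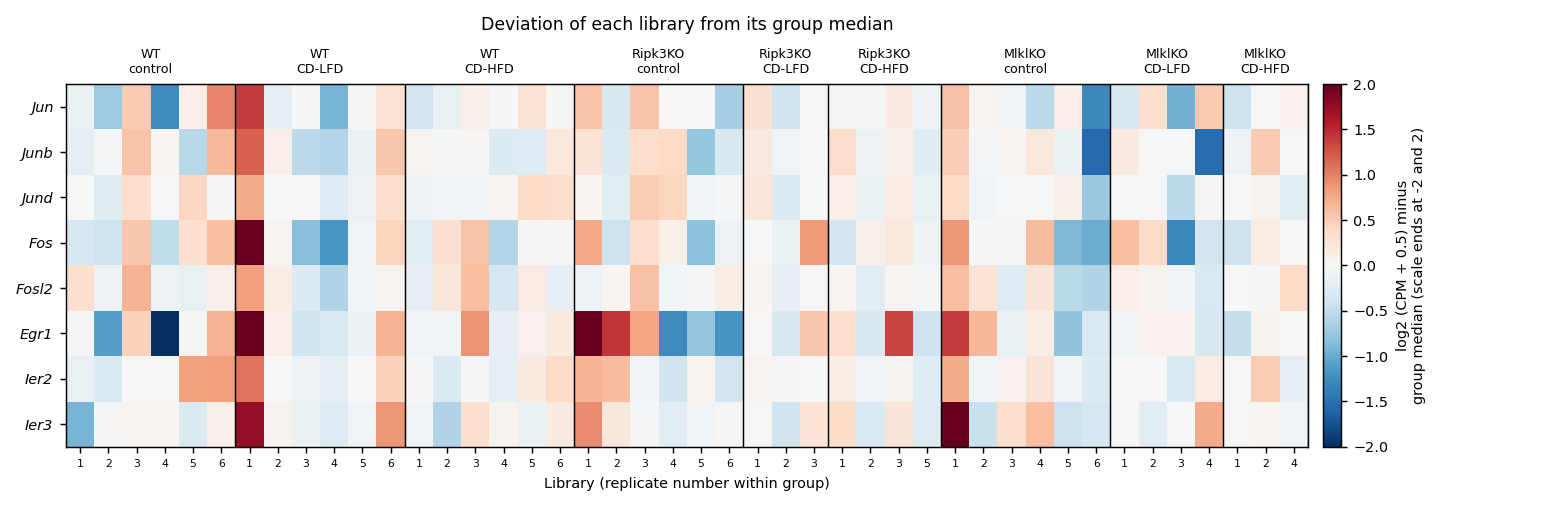
Deviation of each library from its group median, as log2 of CPM plus 0.5, for the 8 tested genes in 44 libraries ordered by group (colour scale ends at -2 and 2). WT CD-LFD replicate 1 and MlklKO control replicate 1 are high in all 8 genes, and MlklKO control replicate 6 is lowest of its group in 6 of 8.

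The counts of the 4 lists of related genes that follow stand beside those over all tested genes. On CD-HFD against control 47.7% (WT), 46.3% (Ripk3KO) and 45.2% (MlklKO) of all tested genes were called, on CD-LFD 27.7%, 24.1% and 37.9%, and on the control diet 27.1% (MlklKO) and 4.47% (Ripk3KO) against WT. Of 38 other immediate early genes, 37 were tested. In WT CD-HFD 18 rose and 8 fell (median change 0.61, against -0.07 over all tested genes). The highest changes were those of Egr2, a relative of Egr1 (7.11 CPM on CD-HFD and 0.0407 on control), Atf3, a stress-induced AP-1 partner (3.45, 45.1 CPM on CD-HFD and 4.24 on control), and Dusp2, a MAP kinase phosphatase (3.22, 4.69 and 0.515 CPM). Those that fell most were the nuclear receptor Nr4a1 (-1.19), its relative Nr4a2 (-1.17) and the phosphatase Dusp1 (-1.13). The same list gave 17 up and 4 down in Ripk3KO CD-HFD and 19 up and 4 down in MlklKO CD-HFD (medians 0.69 and 0.91), with Egr2, Atf3 and Dusp2 again first in both. On CD-LFD the counts were 11 up and 1 down in WT, 8 and 1 in Ripk3KO and 10 and 3 in MlklKO, near or below the shares of all genes for the knockouts. On the control diet MlklKO had 8 up and 8 down against WT, with Socs3, a feedback inhibitor of cytokine signalling, at 2.84 and Cebpd at 1.79, and Nr4a1 at -3.23. Ripk3KO had 4 up and 5 down, with Cebpd at 1.35, Socs3 at 1.33 and Nr4a1 at -2.81.

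Genes known as AP-1 targets had the highest median of the 4 lists in each comparison of a diet with control, though not between genotypes on the control diet. Of 30 listed, 26 were tested, and on CD-HFD 23 rose and 2 fell in WT (median 2.80), 23 and 1 in Ripk3KO (2.63) and 19 and 1 in MlklKO (2.41). The macrophage elastase Mmp12 stood at 231 CPM in WT CD-HFD and 0.219 CPM in WT control, Lgals3 at 318 and 3.85 CPM, and Timp1, an inhibitor of matrix proteases, at 13.0 CPM where all 6 control libraries had 0. Mmp12, Lgals3 and Itgax, first in both knockouts on CD-HFD, are also expressed by macrophages, whose markers moved in the same libraries as given above. Il1b (-1.35) and Vegfa (-0.64) fell in WT. On CD-LFD 20, 19 and 10 of the 26 rose in WT, Ripk3KO and MlklKO, and 0, 0 and 5 fell, the 5 including Plaur and Icam1. On the control diet Plaur was higher in MlklKO than in WT (5.07 and 0.353 CPM).

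Of 15 other AP-1 partners of the leucine zipper family, 14 were tested, and 6 rose and 2 fell in WT CD-HFD (median 0.34). Batf2 (1.71), Maff (1.51) and Jdp2 (1.47) rose most, and Atf6 (-0.56) and Atf2 (-0.49) fell. In Ripk3KO CD-HFD the counts were 5 and 2, and in MlklKO CD-HFD 6 and 2, with Batf3 (1.59 and 2.30) and Jdp2 (1.18 and 1.76) rising in both. Of 30 MAP kinase and serum response factor regulators, 6 rose and 8 fell in WT CD-HFD (median -0.26), 5 and 7 in Ripk3KO and 5 and 6 in MlklKO. On CD-HFD the called shares of these regulators lie near or below those of all genes, and those of the AP-1 partners somewhat above. On CD-LFD 3 of the regulators rose and 13 fell in MlklKO, and of the AP-1 partners 5 rose and 3 fell there and 4 were higher and 4 lower in MlklKO than in WT on control, all above the shares of all genes. The phosphatases Dusp5 (2.08) and Dusp8 (1.39) rose most in WT, and the epidermal growth factor receptor Egfr (-1.25) and the kinase Map3k7 (-0.61) were among those that fell. Egfr fell in both knockouts as well (-1.65 and -2.17), and Mapk3, which encodes ERK1, rose in both (1.04 and 1.43).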

How the data were processed

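The deposited table holds raw read counts per Ensembl gene for 44 liver libraries, which the authors made from strand-directional libraries of total RNA. FastQC, STAR, HTSeq, edgeR, limma and the build GRCm39 (mm39) are named in the submitters' processing notes, while versions, counting settings and the annotation are not given in the sources used here. Of 35249 genes, 34373 were matched to symbols, and the 876 others held 0.0838% of counts. Total counts ran from 2476268 to 88204703, which sets the precision of low genes such as Fosb. The labels do not say that replicates are separate mice, so the p-values measure only the spread between these libraries, which may be technical. No library differed from another of its group by as little as counting noise (chi-square per degree of freedom of at least 6.59).

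Genes were kept by filterByExpr with a minimum count of 10 (14862 genes, 99.8% of counts). Counts were scaled by TMM (factors 0.799 to 1.34), and edgeR 4.0.16 in R 4.3.3 fitted 9 group means over all 44 libraries by quasi-likelihood, with 15 group comparisons and 4 interactions. Within each of these the Benjamini-Hochberg adjustment was applied to the p-values, at a threshold of 0.05, and the SE is the change divided by the root of F. The fits were first tested on simulated data. Alternatives were DESeq2 1.42.0, scaling by RLE or by library size only, omission of the count filter, fits of the compared groups alone, a replicate block, the clock-gene ratio as a covariate, and libraries left out. CPM per kb uses merged exons of GENCODE M21 on GRCm38, a build other than that of the counts.

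The members and all gene lists were chosen with earlier results of these data known, and the acute phase list after its values were seen. All 10 members are named. From the lists of other genes up to 3 called genes with the largest rise and 3 with the largest fall are named for a diet and up to 2 and 2 for a genotype, with a mean log2 CPM of at least 0; the other names were chosen after their values were seen. Some genes that this rule names are not reported here. For likeness the 8 genes closest to Fos and to Jun are named. Promoter sequences are from RefSeq (GRCm38.p6), and those of Egr1, Ier2 and Fosl1 were not used here.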

Additional observations from a re-analysis of the deposited data

Results flagged for a closer look

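The level of each gene in each group of 4 to 6 libraries was examined for a library whose gap to its neighbour exceeded Dixon's 95% critical value. Of 67 combinations of gene and group (those with counts in fewer than 2 libraries left out) 11 had one. Chance gives about 1 in 20 for independent values with a normal spread. The CPM used here are not on a log scale, some are near 0, and the genes move together. No excess over chance can therefore be read from the 11. WT CD-LFD replicate 1 accounted for 4 of them, with Jun at 235 CPM (group median 88.6), Fos at 51.5 CPM (4.37), Fosb at 11.7 CPM (0.787) and Egr1 at 139 CPM (20.1). MlklKO control replicate 1 stood out in Ier3 at 8.19 CPM (1.73), and Ripk3KO control replicate 1 in Ier3 at 2.72 CPM (1.17). Ripk3KO control replicate 3 stood out in Fosl2 at 28.7 CPM (18.9), WT CD-HFD replicate 3 in Egr1 at 46.9 CPM (25.0) and MlklKO CD-LFD replicate 2 in Fosb at 0.894 CPM (0.207). Fosl1 stood out at 1.08 CPM, from 5 counts, in MlklKO control replicate 1 (0). The only low value was that of Jund in MlklKO CD-LFD replicate 3, at 48.0 CPM (69.2).

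The diet response of Junb differed between MlklKO and WT by an interaction test in edgeR, at -2.08 on CD-LFD and -1.94 on CD-HFD on the log2 scale. In both cases the level was higher than in control in WT and lower than in control in MlklKO, and both tests use the same control libraries. Without WT CD-LFD replicate 1 the WT rise on CD-LFD was not called (0.63, edgeR adjusted p = 0.0777). The MlklKO fall on CD-HFD was lost in several fits, among them that by library size only (-0.31, edgeR adjusted p = 0.482). The CD-HFD interaction was lost without MlklKO CD-HFD replicate 4 (edgeR adjusted p = 0.0508).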

How the results depend on the processing

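Over the 15 comparisons and 4 interactions, the count of called genes among the members tested was taken 150 times in another setting and stayed within 1.5 times of the reported count in 126, and no direction of a called count reversed. By library size only, which moved the median log2 change of all genes to 0.268 and 0.427 in WT (CD-LFD and CD-HFD against control), 0.323 and 0.486 in Ripk3KO and 0.202 and 0.488 in MlklKO, 2 genes were called in WT between the choline-deficient diets, 2 in Ripk3KO and 2 in MlklKO on CD-LFD against control, 4 in MlklKO between the choline-deficient diets, and 2 in the MlklKO interaction on CD-LFD. Without a count filter, which lets Fosb and Fosl1 into the test, 2 were called in WT between the choline-deficient diets, Ier3 and Fosb (lower on CD-HFD). Fosb had 11.7 CPM in WT CD-LFD replicate 1, with medians of 0.787 CPM in WT CD-LFD and 0.531 CPM in WT CD-HFD. It was not tested without that library. DESeq2 called 1 in MlklKO between these diets and 1 between Ripk3KO and WT on CD-LFD. With only the compared groups fitted, 3 were called in WT on CD-LFD against control, 0 in WT, 3 in Ripk3KO and 2 in MlklKO between the choline-deficient diets, 2 in MlklKO on CD-LFD against control, 0 between Ripk3KO and WT on control and 0 between MlklKO and WT on CD-LFD. With the clock-gene ratio as a covariate, 3 were called in MlklKO on CD-LFD against control, 0 between Ripk3KO and WT on control and 0 between MlklKO and WT on CD-LFD. Without WT control replicates 5 and 6, 0 were called between Ripk3KO and WT and 1 between MlklKO and WT on control. Without both libraries that go against their labels, 2 were called in Ripk3KO on CD-HFD against control. The cause of these moves was not tested.

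Leaving out 1 library at a time gave 2 to 6 called genes in WT on CD-LFD and 4 to 7 on CD-HFD against control, and 0 to 2 between these diets. It gave 2 to 4 in Ripk3KO on CD-HFD, 1 to 3 in MlklKO on CD-LFD and 2 to 4 on CD-HFD against control. Between genotypes it gave 0 to 1 (Ripk3KO) and 2 to 3 (MlklKO) on control and 0 to 2 (MlklKO) on CD-LFD, and 1 to 2 and 0 to 1 in the MlklKO interactions on CD-LFD and CD-HFD. The replicate numbers are shared by label only. In no comparison did every same-numbered pair correlate above 0.1 in its deviations (from -0.33 to 0.545), so they were not taken as pairs. With the replicate block, 1 gene was called in Ripk3KO and 2 in MlklKO between the choline-deficient diets and 1 between MlklKO and WT on CD-LFD. Depth limited Fosb and Fosl1, which were tested only without the filter.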

Other observations

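Heat shock genes, which encode chaperones induced by protein stress, fell on CD-HFD in the knockouts. Against control, 11 of 12 fell in Ripk3KO (median change -1.41) and 9 of 12 in MlklKO (-1.07), while in WT 2 fell and 1 rose (-0.35). On CD-LFD 4 of 12 fell in WT, 6 in Ripk3KO and 5 in MlklKO, and none rose, where 27.7%, 24.1% and 37.9% of all tested genes were called. The difference between the Ripk3KO and the WT response to CD-HFD was called by edgeR for 4 of the 12, all lower, and that between MlklKO and WT for 1. Of all tested genes, 0.478% and 4.12% were called in these tests. Of 15 tested clock genes, 5 differed in their response to CD-LFD between MlklKO and WT, all higher. In that test 8.45% of all tested genes were called. The log2 ratio of Arntl to Dbp ran from -7.47 to 2.63 in WT control and from -2.63 to -0.27 in WT CD-LFD. In MlklKO it ran from -4.87 to -3.60 on control and from -6.70 to -5.73 on CD-LFD. The part of the time of day in these clock gene calls was not tested. The B and plasma cell markers had 3 of 5 tested called higher in each knockout on each choline-deficient diet against control, with 1 lower in MlklKO on CD-LFD, and 3 lower in MlklKO than in WT on control. Their summed level had lower medians on CD-LFD than on control, at 21.8 and 37.2 CPM in MlklKO and 21.5 and 30.7 CPM in Ripk3KO. Of the 5 erythroid markers 3 fell in WT, 2 in Ripk3KO and 1 in MlklKO on CD-HFD, where 47.7%, 46.3% and 45.2% of all tested genes were called.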
